A study of Aconitum carmichaelii with 4 samples.

Results

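The transcript profiles of flower and bud of Aconitum carmichaelii, a medicinal aconite of the buttercup family, were set against each other. One library had been sequenced for each of 4 tissues (flower, bud, leaf and root), harvested in 1 season from 3-year-old plants grown under natural conditions with no treatment, and the labels of all 4 carry the same plant material number. The labels name the tissues only as flower and bud, do not say which stage of opening was sampled, and do not say how many plants went into a library. Unigenes, the transcripts of a de novo Trinity assembly, were compared where they were longer than 500 bases and had at least 40 fragments in the flower and bud libraries together. This rule kept 25157 of the 46697 unigenes above that length and of the 128183 unigenes in all. The unigenes kept, called members here, belong to 18234 Trinity genes, the groups of related transcripts made by the assembler, and held 87.6% of the 7057551 fragments of flower and 87.1% of the 6614173 of bud.

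Aconites make diterpene alkaloids such as aconitine from isopentenyl diphosphate (IPP), which plants build by a cytosolic route, the mevalonate (MVA) pathway, and by a plastidial route, the methylerythritol phosphate (MEP) pathway. The same building block also feeds the volatile terpenes, carotenoids and hormones of a flower. A developing bud is known in other plants as a place of cell division, cell expansion, cuticle formation and pollen development, while an open flower presents pigments, scent and nectar. Names of unigenes rest on matches to proteins of other species, and only 707 of the members (2.81%) carry a name or a pathway in the sources used here, so the plant functions named below are those of the matched proteins. Markers of petals, stamens or carpels were not among these names, and the labels could therefore not be checked against floral organs.

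Every value comes from 1 library per tissue. No test across plants was possible and no p-value was computed. The TPM (transcript abundance per unit length, scaled to a sum of 1000000 in each library) of flower was divided by that of bud, and the 95% interval beside a ratio is the exact conditional binomial one for the fragments of the 2 libraries. It covers counting error only. For a sum of unigenes, the interval of the summed fragments was scaled to the ratio of summed TPM, which makes it approximate. A count of 0 was read as 3 fragments, so that a fold against it is written as "at least", a bound that leaves out the counting error of the other library. A member was called at least 2-fold or 4-fold higher in a tissue where the ratio reached that fold and the interval excluded 1. A lower value in such a bulk library cannot tell fewer cells of a type from less RNA per cell.

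Most members differed little between flower and bud. The ratio lay within 2-fold for 18877 members (75%), and its median over all members was -0.17 on the log2 scale, with quartiles at -0.65 and 0.35. At least 2-fold higher in flower were 2741 members, which is 10.9% of those compared, and at least 2-fold higher in bud were 3539, which is 14.1%. At least 4-fold differences were found for 1195 members in favour of flower (4.75%) and for 1137 in favour of bud (4.52%), at least 10-fold differences for 551 (2.19%) and 564 (2.24%), together 4.43%, and at least 100-fold differences for 63 (0.25%) and 129 (0.513%), together 0.763%. Under TMM scaling of the members the median moved to -0.02, and the split at 2-fold became 3242 higher in flower against 2852 higher in bud. Flower thus held 43.6% of the members past 2-fold by TPM, 53.2% by TMM on the members, 54.5% by DESeq2 size factors and 62.1% by TMM on all unigenes, so which tissue has more higher members depends on the scaling. For the same rule applied to the other pairs of the 4 libraries, which share libraries with each other, the share of unigenes past 2-fold in either direction was between 39% (flower against leaf) and 53.4% (bud against root), against 25% here.

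**Figure D1:**
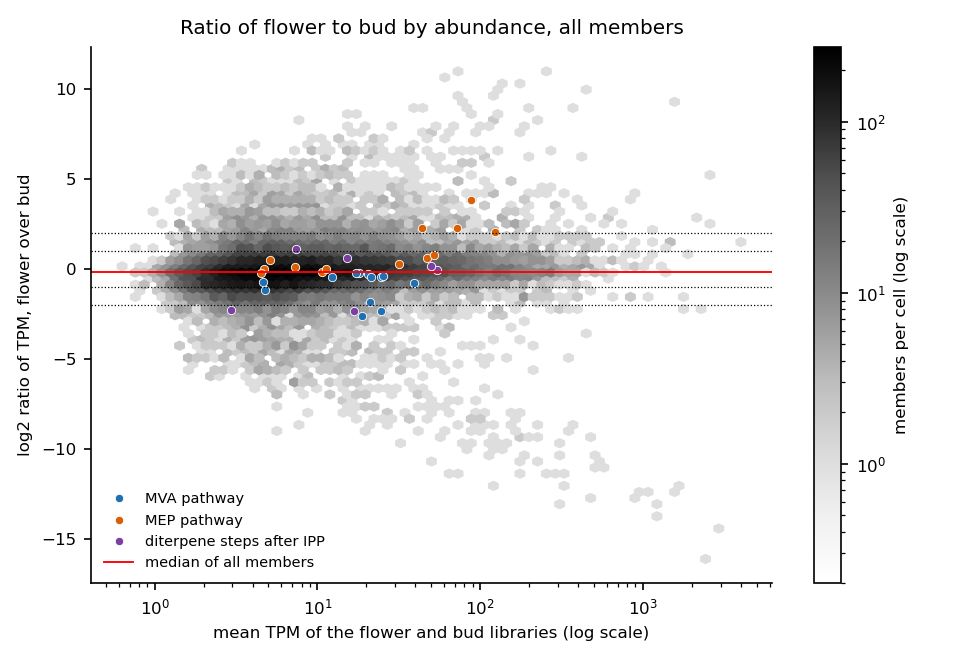
Log2 ratio of TPM (flower over bud) of the 25157 members against the mean TPM of both libraries on a log scale, with the number of members per cell as grey shade and dotted lines at 2-fold and 4-fold. The red line is the median of -0.17, the coloured points are the pathway members, and a separate trail of abundant members lies far below the rest, higher in bud by over 100-fold.

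Depth set how precise a single ratio was and moved with its direction. Among the 8841 members with 40 to 99 fragments in both libraries together, 9.18% were at least 2-fold higher in flower and 19.8% in bud, and the upper bound of a ratio was typically 3.08 times the lower. Among the 1304 members with 1600 fragments or more, 21.3% were higher in flower and 13% in bud, and the bounds lay 1.18 times apart. The median log2 ratio went from -0.31 to 0.07 between these classes. Just outside the rule, the 1416 unigenes with 35 to 39 fragments had 31.8% past 2-fold in either direction, and just inside it the 1240 with 40 to 44 fragments had 33.3%.

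**Figure D2:**
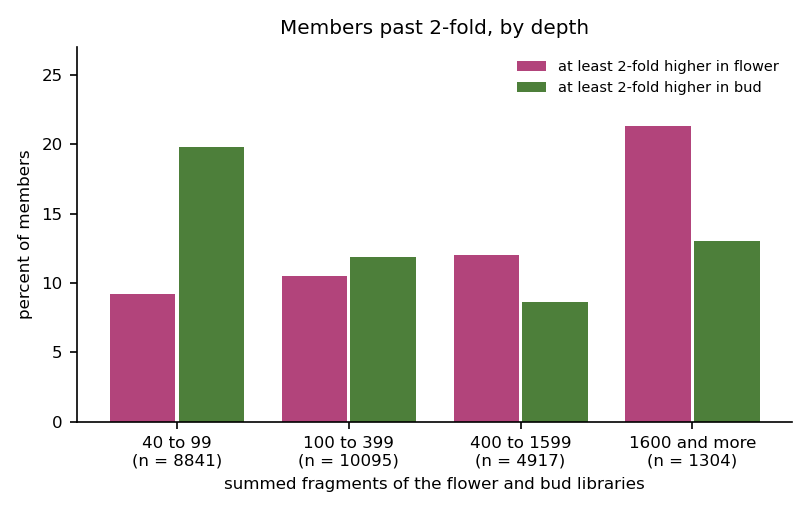
Percent of members at least 2-fold higher in flower or in bud (bars, from 0) in 4 classes of summed fragments, with the number of members under each class. Bud-higher members are the larger share at 40 to 99 fragments (19.8% against 9.18%) and flower-higher members at 1600 and more (21.3% against 13%).

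The members that differed strongly made up a similar part of the TPM of each library, but in different ways. All members together held 55.3% of the flower TPM and 53.7% of the bud TPM. The rest of the TPM lay in unigenes outside the rule. Those at least 4-fold higher in flower held 9.27% of the flower TPM and 0.944% of the bud TPM. Those at least 4-fold higher in bud held 8.96% of the bud TPM and 0.507% of the flower TPM. By fragments the shares were less alike, 13.8% of flower for the flower-higher group and 16.6% of bud for the bud-higher one. In bud the TPM share was concentrated. Its 20 most abundant members held 4.29% of the bud TPM, against 3.31% of the flower TPM for the 20 most abundant of the other side, and the 129 members at least 100-fold higher in bud held 5.41% of the bud TPM, against 1.22% of the flower TPM for the 63 on the flower side.

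The leaf and root libraries, which the rule did not use, set both groups apart. They were shallower than flower and bud, with 5400853 fragments in leaf and 4811266 in root, so a count of 0 in them does not show absence. The members at least 4-fold higher in flower had a median of 3.16 TPM in leaf and 0.81 in root, and 9.37% of them had no fragment in either. Those at least 4-fold higher in bud had medians of 0.34 TPM in leaf and 0.27 in root, and 24.0% had no fragment in either. Over all members the medians were 6.04 and 3.75 TPM, and 2% had no fragment in leaf and root. Of the 129 members at least 100-fold higher in bud, 79 (61.2%) had no fragment in leaf or root, against 17 of 63 (27%) on the flower side. No fragment in bud was found for 70 members, 20 of which were also at 0 in leaf and root, and no fragment in flower for 173, of which 135 were at 0 in leaf and root too.

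The terpenoid precursor routes went in opposite directions. The 52 unigenes assigned to the MVA pathway, the MEP pathway and the diterpene steps after IPP had been chosen by the study as homologs of the pathway enzymes. Of these, 32 were members, and the other 20 had at most 35 fragments in both libraries together. None of the 13 MVA members was at least 2-fold higher in flower and 4 (30.8%) were at least 2-fold higher in bud, with a median log2 ratio of -0.44. These 4 came from 3 of the 8 Trinity genes, and 2 Trinity genes passed 2-fold in bud when unigenes were summed. Of the 13 MEP members 4 (30.8%) were at least 2-fold higher in flower and none in bud, with a median of 0.50. Over all members the shares were 10.9% and 14.1% and the median was -0.17. Under TMM scaling of the members the counts were the same and the medians were -0.30 for MVA and 0.64 for MEP. Summed over its unigenes, the MVA pathway had 188 TPM in flower and 339 in bud, 1.8-fold more in bud (interval 1.71 to 1.90), and the MEP pathway had 766 TPM in flower and 254 in bud, 3.02-fold more in flower (2.91 to 3.13).

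**Figure D3:**
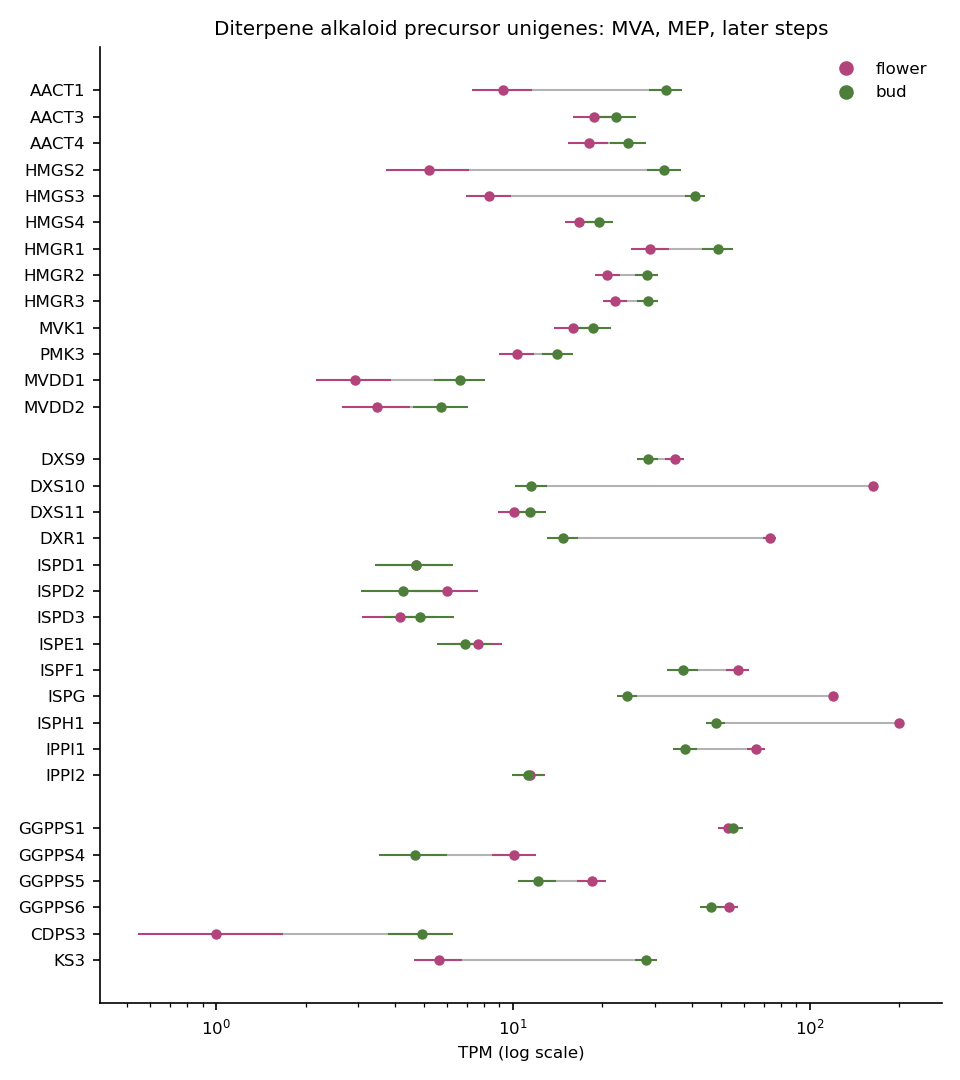
TPM on a log scale in flower (purple) and bud (green) of the 32 pathway members, in the order MVA pathway, MEP pathway and steps after IPP, with exact 95% Poisson intervals of the fragments as horizontal lines. By TPM the MVA points of bud lie right of those of flower for all 13 members (2 of them with intervals of the ratio that hold 1), while DXS10, DXR1, ISPG and ISPH1 lie 4.16-fold to 14.2-fold higher in flower.

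In the MVA pathway the clearest differences were at its entry. Acetyl-CoA acetyltransferase (AACT), which joins acetyl units in the first step, had 1 member far apart from the others. AACT1 had 9.25 TPM in flower (75 fragments) and 32.7 in bud (244 fragments), 3.54-fold higher in bud (2.72 to 4.65). AACT3 and AACT4 stood at 18.8 and 18 TPM in flower and at 22.3 and 24.4 in bud, and the interval of AACT3 held 1. AACT1 was near absent from the other organs, with 0.43 TPM in leaf and 1.02 in root.

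Hydroxymethylglutaryl-CoA synthase (HMGS), which adds the third acetyl unit, differed most. HMGS2 had 5.21 TPM in flower (40 fragments) and 32.3 in bud (228 fragments), 6.20-fold higher in bud (4.42 to 8.91). HMGS3 had 8.30 TPM in flower (137 fragments) and 41.1 in bud (624 fragments), 4.95-fold higher in bud (4.11 to 6). HMGS2 and HMGS3 are of the same Trinity gene, so they may share fragments. Both were lower still in leaf (3.16 and 3.99 TPM) and root (0.65 and 0.90 TPM), so that bud had the highest level of the 4 libraries. HMGS4 was nearly level, with 16.7 TPM in flower and 19.5 in bud. As a sum, HMGS was 2.86-fold higher in bud (2.57 to 3.17).

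Hydroxymethylglutaryl-CoA reductase (HMGR), the rate-limiting enzyme of the pathway in plants and animals, had 3 members of 1 Trinity gene that were all moderately higher in bud. HMGR1 had 29.0 TPM in flower and 48.9 in bud, 1.69-fold higher in bud (1.40 to 2.04), and HMGR2 and HMGR3 were 1.36-fold and 1.28-fold higher in bud. None reached 2-fold. The later kinases and the decarboxylase followed with small differences. Mevalonate kinase (MVK1) had 15.9 TPM in flower and 18.6 in bud with an interval that held 1, phosphomevalonate kinase (PMK3) 10.3 and 14.1, and mevalonate diphosphate decarboxylase (MVDD1) 2.93 and 6.63, the last 2.26-fold higher in bud (1.59 to 3.25). MVDD2, of the same Trinity gene, was 1.64-fold higher in bud (1.17 to 2.32).

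In the MEP pathway the entry enzymes and the final reductive steps stood out. 1-deoxy-d-xylulose-5-phosphate synthase (DXS), the entry and main control point of the route, was listed with 11 unigenes, of which 8 had too few fragments to be members. DXS10 had 163 TPM in flower (3879 fragments) and 11.5 in bud (252 fragments), 14.2-fold higher in flower (12.5 to 16.2). It was at 8.47 TPM in leaf and 17.8 in root, so that flower stood above the other 3 libraries. DXS9 had 35 TPM in flower and 28.4 in bud, 1.23-fold higher in flower (1.11 to 1.37), and was highest in leaf with 56.6. DXS11 had 10.1 and 11.4 TPM with an interval that held 1.

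The reductoisomerase DXR1, the second enzyme of the route, had 73.1 TPM in flower (1438 fragments) and 14.7 in bud (266 fragments), 4.97-fold higher in flower (4.36 to 5.69). ISPG, which makes hydroxymethylbutenyl diphosphate, had 120.0 TPM in flower (3282 fragments) and 24.2 in bud (609 fragments), 4.96-fold higher in flower (4.55 to 5.42). ISPH1, which turns that product into IPP, had 3213 fragments in flower and 711 in bud (48.1 TPM in bud), 4.16-fold higher in flower (3.83 to 4.52). For DXR1, ISPG and ISPH1 the leaf library was also above bud, with 53.2, 153 and 250.1 TPM. In root, ISPG had 131 TPM, above both flower and bud, while DXR1 had 6.41 and ISPH1 45, both below bud.

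The middle steps of the MEP pathway did not share this difference. The cytidylyl-transferase members ISPD1, ISPD2 and ISPD3, of 1 Trinity gene, had 4.70, 6 and 4.15 TPM in flower and 4.70, 4.25 and 4.86 in bud, and the kinase ISPE1 had 7.61 and 6.91, all with intervals that held 1. The cyclodiphosphate synthase ISPF1 was 1.53-fold higher in flower (1.31 to 1.78). The isomerase IPPI1, which interconverts IPP and its isomer, was 1.73-fold higher in flower (1.54 to 1.95), with 65.8 TPM in flower and 38 in bud, and IPPI2 was nearly level with 11.4 and 11.2.

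After IPP the direction changed between enzymes. Geranylgeranyl pyrophosphate synthase (GGPPS), which makes the diterpene precursor shared with carotenoids and gibberellins, was nearly level as a sum, with 141 TPM in flower and 124 in bud (1.13-fold higher in flower, 1.06 to 1.22). Its member GGPPS4 had 10.1 TPM in flower (139 fragments) and 4.66 in bud (59 fragments), 2.17-fold higher in flower (1.59 to 2.99). The most abundant ones, GGPPS1 and GGPPS6, differed by 1.04-fold and 1.15-fold.

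The cyclases fold that precursor toward the kaurene-type skeleton, and their members CDPS3 and KS3 were higher in bud. Copalyl diphosphate synthase CDPS3 had 1 TPM in flower (14 fragments) and 4.92 in bud (63 fragments), 4.89-fold higher in bud (2.71 to 9.45), and was highest in leaf with 12.2. Kaurene synthase KS3 had 5.61 TPM in flower (115 fragments) and 28 in bud (527 fragments), 4.98-fold higher in bud (4.06 to 6.15), and bud was its highest library. The other 5 CDPS and KS unigenes had too few fragments in flower and bud to be members. As a sum that includes these, CDPS was 3.41-fold (2.30 to 5.15) and KS 4.86-fold (3.99 to 5.96) higher in bud. CDPS2, with 5 fragments in flower and 26 in bud, gave 4.67 of the 10.1 TPM of CDPS in bud. CDPS1 and CDPS4 had more TPM in flower, with intervals that held 1, and KS1 and KS2 had more in bud.

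Cytochrome P450s are oxidases that decorate such skeletons. The study had picked 21 of them from these same libraries because their levels correlated with those of CDPS4 and KS2, which are highest in root. Of these 21, 7 were members, from 6 Trinity genes. At least 2-fold higher in flower was 1 (14.3%) and in bud 2 (28.6%), against 10.9% and 14.1% of all members. With DESeq2 size factors only 1 stayed past 2-fold in bud. TR45571|c1_g2_i1 had 2.34 TPM in flower (41 fragments) and 0.37 in bud (6 fragments), 6.29-fold higher in flower (2.65 to 18.1). TR47900|c0_g2_i1 had 3.08 and 9.11 TPM, 2.95-fold higher in bud (1.56 to 5.90). All were low in flower and bud, at no more than 9.11 TPM.

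The volatile terpene synthases, which make scent and defence compounds, had 9 members of only 3 Trinity genes and split by the protein they matched. Unigenes matched to myrcene synthase, a monoterpene enzyme of plastids, were higher in flower. TR47604|c1_g4_i5 had 248 TPM in flower (1003 fragments) and 0.27 in bud (1 fragment), a ratio of 921 with an interval that begins at 165, and TR40366|c1_g3_i6 had 14.8 and 1.20 TPM, 12.3-fold higher in flower (5.02 to 39.1). The former was near absent from leaf and root too, with 0 and 0.82 TPM. The 7 members matched to santalene synthase, a sesquiterpene enzyme, come from 1 Trinity gene and were all higher in bud, 6 of them at least 2-fold by TPM, 5 under TMM scaling and 4 with DESeq2 size factors. TR45580|c1_g3_i2 was the lowest of the list, with 2.03 TPM in flower and 6.92 in bud, 3.41-fold higher in bud (2.08 to 5.79).

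The annotated members with the highest counting bounds in flower began with the myrcene synthase-like unigene above. A serine carboxypeptidase, a family that includes both proteases and acyl transfer enzymes, had 220.4 TPM in flower (3359 fragments) and 0.86 in bud (12 fragments) for TR41300|c3_g1_i2, 258-fold higher in flower (147 to 499), and no fragment in leaf or root. A cytochrome P450 named 82A3-like, TR40144|c3_g1_i2, had 106 TPM in flower (1951 fragments) and 1.88 in bud (32 fragments), 56.1-fold higher in flower, with 6.86 TPM in leaf and 0 in root. An ATP-binding cassette transporter, TR41062|c1_g1_i4, had 15.2 and 0.28 TPM (349 and 6 fragments), 53.5-fold higher in flower. These were nearly confined to flower among the 4 libraries, the P450 with a low level in leaf.

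The other annotated members of that group, apart from DXS10, were less abundant. An unigene of alpha-linolenic acid metabolism, the route to jasmonate, was at 7.87 TPM in flower and 0 in bud, at least 37.1-fold higher (TR44703|c0_g2_i2), but it had been listed by the study because it was seen in flower alone. An L-ascorbate oxidase, TR35408|c0_g1_i1, was at 5.84 TPM and 0, at least 31.3-fold higher in flower, and an L-ascorbate oxidase homolog, TR34481|c0_g1_i1, at 6.38 and 0.06 TPM from 108 fragments and 1, a ratio of 99.4 with a lower bound of 17.5. These proteins belong to the multicopper oxidases of the cell wall. A PHO1-like phosphate transporter, TR47065|c0_g1_i4, was at 5.39 TPM and 0, and the F-box protein SKIP28, TR40886|c0_g2_i3, at 9.00 TPM and 0, at least 30.7-fold and 25.1-fold higher in flower. F-box proteins select targets for ubiquitin-dependent breakdown.

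**Figure D4:**
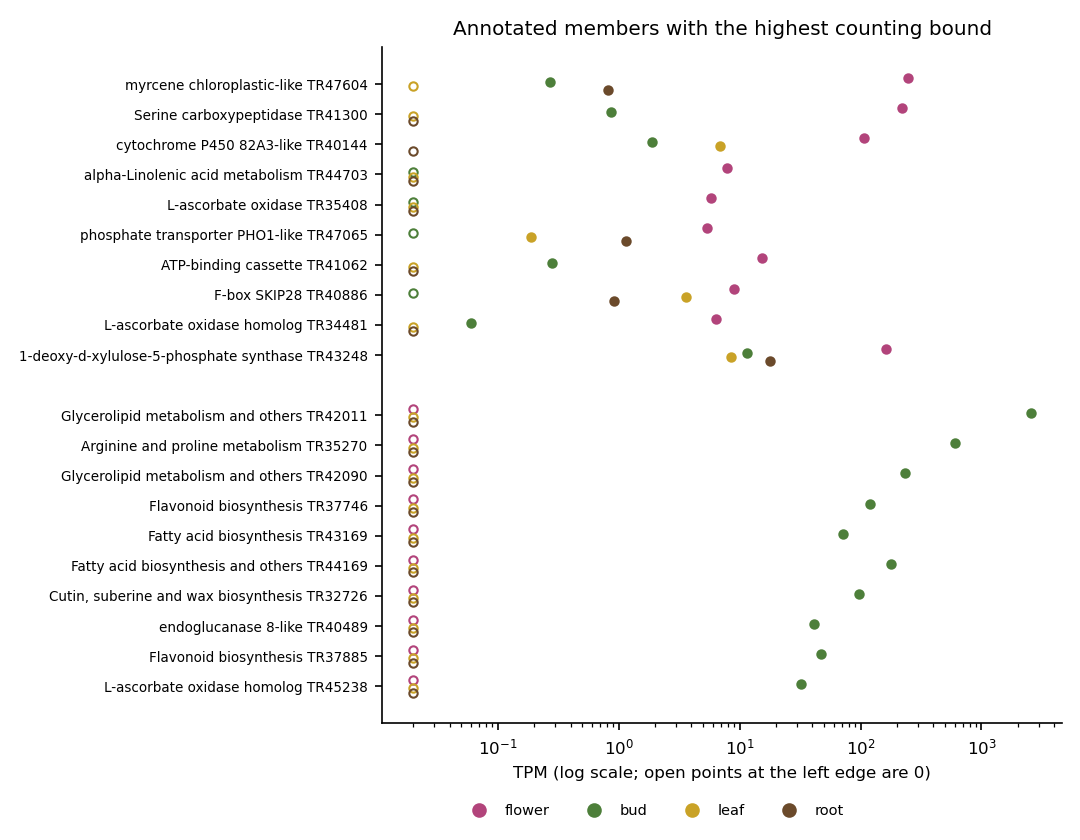
TPM on a log scale in flower, bud, leaf and root of the 10 annotated members with the highest counting bound in each direction, flower above and bud below, with open points at the left edge for a value of 0. The bud group has no fragment in flower, leaf or root, but most of it comes from a list of unigenes that the study had seen in bud alone. In the flower group only TR44703 comes from the matching flower list. The myrcene synthase-like unigene, DXS10 (TR43248), the cytochrome P450, the PHO1-like transporter and SKIP28 of the flower group are also seen in leaf or root. The groups were thus not chosen alike.

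The 10 annotated members with the highest counting bounds in bud all had no fragment in flower, leaf and root. For 8 of them this follows from the choice, since they come from a list of unigenes that the study had seen in bud alone, and the listing is not independent evidence of their direction. TR42011|c1_g2_i1, assigned to glycerolipid and alpha-linolenic acid metabolism, had 2574 TPM in bud (39572 fragments), at least 14338-fold higher than in flower. TR42090|c0_g2_i1, with the same assignment, had 235 TPM in bud and was at least 603-fold higher. Between them lay TR35270|c0_g1_i1 of arginine and proline metabolism, with 607 TPM in bud (7211 fragments).

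Fatty acid biosynthesis was represented by TR43169|c0_g1_i3 with 72.0 TPM in bud and TR44169|c0_g1_i1 with 179.7, and cutin, suberine and wax biosynthesis by TR32726|c0_g2_i1 with 97.5. These pathways supply the cuticle and the lipids of the pollen wall. Flavonoid biosynthesis was represented by TR37746|c0_g1_i1 with 119 TPM and TR37885|c0_g1_i1 with 46.7. The pair not from that list were the endoglucanase TR40489|c0_g1_i1 (605 fragments, 41.5 TPM, at least 219-fold higher in bud) and the L-ascorbate oxidase homolog TR45238|c0_g1_i1 (499 fragments, 32.4 TPM, at least 181-fold higher). The L-ascorbate oxidase names therefore appear on both sides, with different unigenes.

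Among members without a name in the sources used here, TR34959|c0_g1_i2 and TR34959|c0_g1_i1, of 1 Trinity gene, had 351 and 239 TPM in flower (3723 and 2695 fragments) and no fragment in bud, at least 1141-fold and 826-fold higher in flower. TR38018|c0_g1_i1 had 5125 TPM in bud from 66416 fragments and 0.07 in flower from 1 fragment, and TR43505|c0_g1_i2 had 947 TPM in bud and none in flower. Of the 20 members with the highest bounds in bud, 18 had no fragment in leaf and root and 2 carried a name or pathway. On the flower side these numbers were 6 and 2.

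Cell wall enzymes, which loosen, cut or build the wall during growth, had members past 2-fold in both directions. Of 27 members (18 Trinity genes), 9 (33.3%) were at least 2-fold higher in bud and 1 (3.7%) in flower, against 14.1% and 10.9% of all members, and the median log2 ratio was -0.65. Under TMM scaling these counts were 7 and 3 with a median of -0.50. Besides the endoglucanase above, a rhamnogalacturonate lyase, which cuts pectin, had 0.54 TPM in flower (11 fragments) and 23.6 in bud (442 fragments), 43.7-fold higher in bud (24.2 to 88.1, TR44404|c0_g1_i1). A cellulase of glycosyl hydrolase family 9, TR41402|c0_g1_i1, had 6.12 and 42.1 TPM, 6.88-fold higher in bud (5.58 to 8.57). The member highest in flower was a glycosyl hydrolase of family 43, TR44363|c1_g1_i2, with 3.85 and 1.85 TPM, 2.09-fold (1.34 to 3.32).

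For genes of cell division and chromatin replication, 9 of 21 members (42.9%, from 14 Trinity genes) were at least 2-fold higher in bud and none in flower, against 14.1% and 10.9% of all members, with a median of -0.46, and under the other scalings of the list 7 to 9 were higher in bud and none in flower. The 9 are histone H4, DNA methyltransferase, chromomethylase and chromosome-associated kinesin unigenes. Histone H4, the core histone made for new chromatin, had 2.88 TPM in flower (11 fragments) and 17.4 in bud (61 fragments) for TR29522|c0_g2_i1, 6.04-fold higher in bud (3.15 to 12.7). A more abundant histone H4 unigene, TR39336|c2_g1_i1, had 132 and 387 TPM, 2.95-fold higher in bud (2.69 to 3.23). The 4 members named DNA (cytosine-5)-methyltransferase, which copies methylation onto new strands, were 2.37-fold to 3.45-fold higher in bud. Histone H3 unigenes stayed under 2-fold, at most 1.38-fold higher in bud. Unigenes named retinoblastoma-related, a brake on cell cycle entry, went both ways. TR35992|c0_g1_i2 was the list member highest in flower, at 1.53-fold (1.18 to 1.99). TR32389|c0_g1_i1 was 1.35-fold (1.02 to 1.79) and TR32967|c0_g1_i1 1.37-fold higher in bud, the latter with an interval that held 1.

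Auxin response factors, which bind the promoters of auxin-induced genes, had 7 members of 3 Trinity genes, of which 6 (85.7%, against 14.1% of all members) were at least 2-fold higher in bud and the seventh 1.99-fold, with a median of -1.06. Because most lie close to 2-fold, only 3 passed it under TMM scaling. ARF9-like TR48006|c0_g2_i9 had 1.52 TPM in flower (44 fragments) and 4.88 in bud (130 fragments), 3.21-fold higher in bud (2.27 to 4.63), and the lowest difference was that of the ARF3-like TR44078|c1_g1_i6. Small RNA machinery had 8 members with a median of -0.70, and 2 argonaute 1-like members of 1 Trinity gene (25% of the list, against 14.1% of all members) were past 2-fold in bud. TR40289|c0_g2_i2 had 1.31 and 4.55 TPM, 3.46-fold higher in bud (2.49 to 4.87), while dicer-like 3 (TR35113|c0_g1_i2) differed by 1.14-fold with an interval that held 1.

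FRUITFULL-like MADS-box factors, regulators of flowering and carpel growth, were level. Their 4 members had 11.6 to 13.1 TPM in flower and 10.2 to 14 in bud, ratios between 1.10-fold higher in bud and 1.21-fold higher in flower, and all 4 intervals held 1. Of the 7 light receptors, 6 differed by under 2-fold. Phytochrome A, TR46150|c1_g1_i1, had 0.43 TPM in flower (8 fragments) and 4.72 in bud (81 fragments), 11-fold higher in bud (5.33 to 26.4), and a cryptochrome, TR48307|c1_g1_i1, was highest in flower at 1.60-fold (1.26 to 2.05). The plant photoreceptors of red and blue light are these phytochromes and cryptochromes.

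Heat shock proteins, chaperones that hold or refold other proteins, had 18 members of 13 Trinity genes. Of these, 8 (44.4%) were at least 2-fold higher in flower and 1 (5.56%) in bud, against 10.9% and 14.1% of all members, with a median of 0.78. At any fold, the interval lay wholly on the flower side for 11 members and wholly on the bud side for 7. The highest ratio was that of TR37429|c0_g1_i1, with 13.8 TPM in flower (294 fragments) and 0.92 in bud (18 fragments), 15-fold higher in flower (9.34 to 25.7). The small class II members of TR40495 were the most abundant, TR40495|c1_g1_i2 with 1957 TPM in flower and 764 in bud, 2.56-fold higher in flower (2.46 to 2.67). Of the members named for HSP70 or its cognate, 2 were higher in bud, by 1.43-fold and 1.67-fold, and 4 were higher in flower, by 1.2-fold to 4.11-fold. TR28002|c0_g1_i1, named only as heat shock, with 85.8 and 199.7 TPM, was 2.33-fold higher in bud (2.11 to 2.57). The leaf library also had high levels of the flower-higher members, 38.8 TPM for TR37429|c0_g1_i1 and 598 TPM for TR40495|c1_g1_i2. The part of harvest time and temperature was not tested.

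Transporters of sugars, metals and sulfate held single members with large differences in either direction. SWEET15, a sugar exporter, had 123 TPM in flower (1345 fragments) and 9.02 in bud (91 fragments) for TR36419|c0_g1_i1, and its second unigene, TR36419|c0_g1_i2, had 78.9 and 5.38 TPM, 14.7-fold higher in flower (11.3 to 19.4). Neither had a fragment in leaf or root. A trehalose 6-phosphate synthase, TR46167|c0_g3_i1, which makes a sugar signal, had 2.95 and 11.6 TPM, 3.95-fold higher in bud (3.13 to 5.02). In all, 3 of the 15 sugar members (20%) were at least 2-fold higher in each direction, against 10.9% of all members in flower and 14.1% in bud.

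A sulfate transporter, TR42857|c1_g4_i1, had 17 TPM in flower (389 fragments) and 1.14 in bud (24 fragments), 14.9-fold higher in flower (9.88 to 23.6), and a cysteine synthase of the same list, TR36942|c0_g1_i4, was 2.17-fold higher in bud (1.13 to 4.35). The median of that list, over 10 members, was -0.06 and becomes 0.09 under TMM scaling, with 3 members at least 2-fold higher in flower and 1 in bud, or 3 and 0 under TMM. Of the oligopeptide and metal chelate transporters, 3 of 11 (27.3%) were at least 2-fold higher in flower and 2 (18.2%) in bud, against 10.9% and 14.1% of all members, with a median of 0.69. The oligopeptide transporter TR44993|c1_g2_i2 had 1.78 TPM in flower (46 fragments) and 56.2 in bud (1336 fragments), 31.6-fold higher in bud (23.5 to 43.3). The member highest in flower, TR47515|c0_g1_i2, had 9.46 and 2.79 TPM, 3.39-fold (2.55 to 4.55).

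Enzymes of aromatic metabolism varied by unigene. Phenylalanine ammonia-lyase opens the phenylpropanoid route, and BAHD acyltransferases attach acyl groups to its products and to alkaloids. Together they had 8 members of 6 Trinity genes. Of these, 4 (50%) were at least 2-fold higher in flower and 2 (25%) in bud, against 10.9% and 14.1% of all members. The flower-higher members came from only 2 Trinity genes, as did the bud-higher ones. The phenylalanine ammonia-lyase TR48094|c2_g3_i1 had 25.7 TPM in flower (132 fragments) and 118 in bud (557 fragments), 4.59-fold higher in bud (3.79 to 5.59), and the other one, TR34694|c0_g1_i1, was 1.19-fold higher in bud. An acyltransferase named for anthocyanin, TR40664|c2_g3_i2, had 3.36 and 0.68 TPM, 4.97-fold higher in flower (2.50 to 10.9). Among 4 aromatic O-methyltransferases, TR32830|c0_g3_i1 had 84.3 TPM in flower and 16.1 in bud, 5.24-fold higher in flower (4.42 to 6.25), and TR40251|c3_g2_i2 was 2.20-fold higher in bud (1.49 to 3.30), a call lost under TMM scaling.

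Structural and housekeeping lists lay near the median of all members. Actin, tubulin and their motors had 31 members with a median of -0.19, 4 (12.9%) at least 2-fold higher in flower and 2 (6.45%) in bud, against 10.9% and 14.1% of all members. The highest ratio was that of an alpha tubulin, TR42031|c2_g1_i1, with 286 TPM in flower (6119 fragments) and 34.6 in bud (681 fragments), 8.27-fold higher in flower (7.64 to 8.96). A beta tubulin, TR36845|c1_g1_i1, had 26.4 and 60.6 TPM, 2.29-fold higher in bud (1.86 to 2.85). Ubiquitin and translation factors had 29 members with a median of -0.08, which becomes 0.06 under TMM scaling, and of which only 2 polyubiquitin members of 1 Trinity gene were past 2-fold, both in flower. TR36191|c3_g3_i2 had 149 and 39 TPM, 3.81-fold higher in flower (3.30 to 4.42), and the ribosomal protein TR43692|c0_g3_i4 was lowest, 1.97-fold higher in bud (1.04 to 3.88).

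Pentatricopeptide repeat proteins, which process organelle transcripts, had 34 members with a median of -0.37, 4 (11.8%, against 14.1% of all members) at least 2-fold higher in bud and none in flower, and ranged from 2.60-fold higher in bud (TR39654|c0_g1_i1) to 1.47-fold higher in flower (TR41620|c0_g2_i1). Transposable elements had 31 members with a median of -0.39, 2 of them (6.45%, against 14.1% of all members) at least 2-fold higher in bud and none in flower. A mutator-like transposase, TR44887|c0_g4_i2, had 2.52 and 6.59 TPM, 2.62-fold higher in bud (1.71 to 4.08), and a retrotransposon, TR36883|c0_g5_i1, was highest in flower at 1.56-fold with an interval that held 1. The 5 plastid chaperonin members, which fold rubisco, had a median of -0.33 and none past 2-fold, and the single resistance protein of the NBS-LRR type was 2.02-fold higher in bud (1.02 to 4.18), a call lost under TMM scaling.

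**Figure D5:**
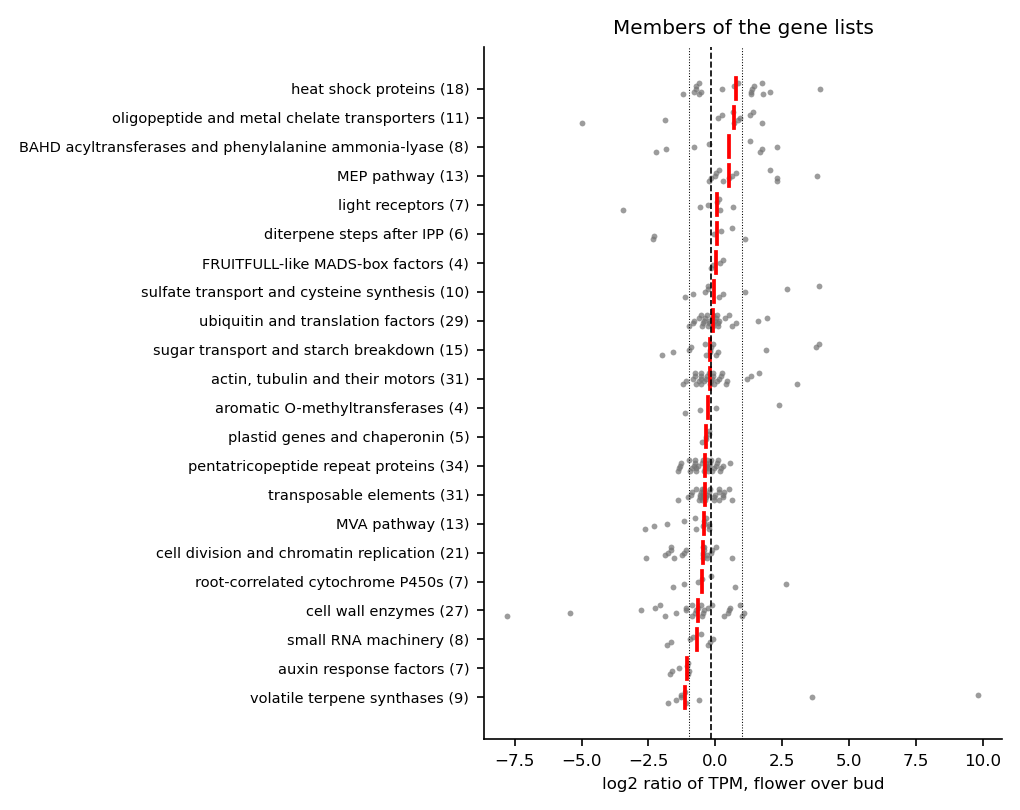
Log2 ratio of TPM (flower over bud) of each member of 22 gene lists (points), with the median of the list in red, the number of members in brackets, the median of all members as a dashed line and 2-fold as dotted lines. Heat shock proteins have the highest median (0.78) and volatile terpene synthases the lowest (-1.15), the latter with 2 myrcene synthase members at 3.62 and 9.85.

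The members of a Trinity gene were compared with each other. Of 4924 Trinity genes with at least 2 members, 3408 had no member past 2-fold, 348 had all of them at least 2-fold higher in flower and 362 all in bud, and 790 had some but not all past 2-fold in 1 direction. Members in both directions occurred in 16 (0.325%). The sources used here do not say how fragments matching several unigenes were divided, so a difference within a Trinity gene is uncertain.

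The largest such contrast was that of TR44183|c3_g1, without a name. Its unigene TR44183|c3_g1_i1 had 506 TPM in flower (11479 fragments) and 65.0 in bud (1356 fragments), 7.79-fold higher in flower (7.36 to 8.25), while TR44183|c3_g1_i4 had 4.86 and 76.4 TPM, 15.7-fold higher in bud (11.5 to 22.1). In TR34992|c0_g1 the opposite unigenes were of similar level, TR34992|c0_g1_i3 with 331 TPM in flower and 32.4 in bud and TR34992|c0_g1_i2 with 28.5 and 294. In leaf, TR44183|c3_g1_i1 had 28.6 TPM and TR34992|c0_g1_i3 had 29.2, and the bud-higher unigene of each gene had none. In TR44768|c2_g1 the differences were 2.20-fold in favour of flower (1.63 to 2.99) and 19.8-fold in favour of bud (10.2 to 44.1).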

How the data were processed

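RNA of 4 tissues was sequenced with a strand-specific, poly(A)-selected, paired-end protocol, 1 library per tissue. The authors trimmed reads with Trimmomatic, assembled them with Trinity, reduced redundancy with CD-HIT-EST and estimated abundance with Bowtie 2 and RSEM (versions, and whether counting used strand, are not given in the sources used here). The deposited files hold, per unigene, the expected count (whole numbers as deposited), the TPM and the FPKM that the authors' RSEM run gave. A joint table of the series with 4 columns of FPKM was not used.

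Ratios were taken from TPM, with exact Clopper-Pearson intervals from the expected counts of each unigene, in Python 3.11.15 with scipy 1.17.1. They were repeated with TMM factors (edgeR 4.0.16), DESeq2 1.42.0 size factors and FPKM. For lists, pathways and named unigenes, TMM scaling is that on the members. In libraries simulated by Poisson draws from the pooled flower and bud profile, 100% of 199 members changed 4-fold and 0.35% of the unchanged ones were called, over 24494 members. These draws follow the counting model of the intervals and hold no differences between plants or preparations. They therefore give no rate of false calls for the real libraries.

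The members and gene lists were chosen with earlier results of these data known. Names came from shortened copies of the study's annotation tables. Named were the pathway unigenes, the 10 annotated members with the highest lower bound per direction (1 per Trinity gene), the highest and lowest member of each list, 2 members without a name per direction, and 3 Trinity genes with members in both directions. A few more list members were named after their values were seen. They are further unigenes of auxin response factors, argonaute, histones, retinoblastoma-related proteins, SWEET15, phenylalanine ammonia-lyase, cellulase, dicer, small heat shock and santalene synthase.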

Additional observations from a re-analysis of the deposited data

How the results depend on the processing

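No paired analysis was possible because each tissue has 1 library, and for the same reason no replicate could be left out. The median log2 ratio of all members (-0.17) was -0.02 with TMM on the members, 0.11 with TMM on all unigenes, 0.00 with DESeq2 size factors, -0.15 with FPKM, -0.22 at a minimum of 20 fragments and -0.10 at 100. Members at least 2-fold higher in bud (3539) numbered 2347 with TMM on all unigenes, 1790 at a minimum of 100 fragments, 6181 with no minimum and 1626 where the whole interval had to pass 2-fold, and those in flower (2741) numbered 1740 under the last rule. At 4-fold, bud (1137) had 1743 at a minimum of 20, 626 at 100, 2530 with none and 714 by the whole interval, and flower (1195) had 1800 with none. Centring on the median, chosen after seeing the data, gave 3337 in flower and 2745 in bud at 2-fold. Members of at least 4-fold held 13.8% of flower fragments and 16.6% of bud fragments, and those of at least 10-fold 4.71% and 6.70% of TPM. Summed over Trinity genes, 2 of 8 in the MVA pathway passed 2-fold in bud (4 unigenes otherwise) and 0 of the steps after IPP in flower (1 otherwise). Trinity genes in both directions fell from 16 to 3 at 4-fold, and at a minimum of 100 fragments 89 members had none in flower and 38 none in bud. Named unigenes were recomputed with TMM on the members, DESeq2 size factors and FPKM. TMM on all unigenes, which moved the median most, was not among these scalings. Of the 183 recomputed ratios, 51 are bounds against a count of 0 with no interval and 122 stayed within their own counting interval. Another 10 lay outside it, and 0 changed the direction of a call. A change under a fragment minimum follows from the members tested. The limit on all values is 1 library per tissue: the intervals hold counting error only, not plants, stages or preparation.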

Other observations

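Families outside the lists above were read after their values had been seen, and their counts are descriptions. Subunits of the vacuolar proton pump, which acidifies the vacuole, had 6 members, all with ratios above 1. Their names cover only the C subunit and the 16 kDa proteolipid subunit. All but TR34701|c0_g1_i1 belong to TR38056, so they may share fragments. The 6 members summed to 721 TPM in flower and 325 in bud, with 4 at least 2-fold higher in flower, where 10.9% of all members were, and a median log2 ratio of 1.07. The C subunit TR38056|c2_g4_i1 differed most, with 161 TPM in flower from 1314 fragments against 390 fragments in bud, 3.10-fold higher in flower (2.76 to 3.48). ABC transporters, which carry lipids, hormones and secondary products across membranes, had 5 of 11 members at least 2-fold higher in flower and none in bud, against 10.9% and 14.1% of all members, with a median of 0.99. TR47002|c0_g1_i1, a white-brown-complex member, had 612 flower fragments and 68 from bud, with 2 in root and none in leaf, 8.28-fold higher in flower (6.44 to 10.8). Cationic amino acid transporters had 5 members from only 2 Trinity genes, so that their unigenes may share fragments. Of these members 4 were at least 2-fold higher in flower, where 10.9% of all members were. The family summed to 86.8 TPM in flower and 34.7 in bud.

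The cytochrome P450 unigenes named 82A3 or of the same Trinity gene divided by gene. The 4 members of TR40144|c3_g1 were 13.9-fold to 56.1-fold higher in flower, while TR40144|c3_g2_i2, with 81 fragments in flower and 117 in bud, was 1.57-fold higher in bud (1.17 to 2.11) and had 403 fragments in leaf. GDSL esterase lipases, a family with cutin-forming members, had 3 of 4 members at least 2-fold higher in bud, where 14.1% of all members were, 17-fold to 23.5-fold, and all 4 had no fragment in leaf or root. Choline-phosphate cytidylyl-transferase, which controls phosphatidylcholine synthesis, had 3 members of 1 Trinity gene that were 2.43-fold to 4.39-fold higher in bud. SEC23 coat proteins and shaggy-related kinases, with 5 members each, had none past 2-fold, with medians of -0.01 and -0.17.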
